A study of Mus musculus with 6 samples.

Results

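Immunoglobulin heavy chain variable gene usage was read from single cells of mouse blood. The members are the 185 features whose symbol starts with Ighv, of 31253 genes in the deposited matrices. Peripheral blood mononuclear cells were profiled in 6 libraries from male mice of 12 to 13 weeks. In the control group (Con), 3 libraries came from saline-injected animals. In the diabetic group (T2D), 3 libraries came from animals given intraperitoneal streptozotocin, a toxin of pancreatic beta cells, in a model that the series title names as induced by a high-fat diet and streptozotocin. Strain, control diet and the number of mice behind a library are not given in the labels used here. The tests therefore weigh differences against the scatter among 3 libraries a group, which may be partly technical. B cells were taken as cells with at least 3 unique molecular identifiers (UMIs, each a tag of 1 captured RNA molecule) over Cd79a, Cd79b and Ms4a1, which encode 2 signalling chains of the B cell receptor and CD20. Each such cell was assigned the Ighv gene with the most UMIs, if that gene had at least 2. Of 23886 gated B cells, 2032 received an Ighv gene this way, in 276 to 399 cells per library.

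A B cell builds its heavy chain by joining 1 V, 1 D and 1 J segment on chromosome 12 during development in the bone marrow, and the V segment supplies most of the antigen-binding domain. A mature B cell normally uses a single productive heavy chain, so the V gene in its transcripts marks its clone's choice from the germline. The Ighv1 family (J558) is the largest of the mouse, and the Ighv5 and Ighv2 families lie nearest to the D segments. Blood holds mostly naive B cells, with few B-1 cells and few antibody-secreting plasmablasts.

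The V segments of the 5 most used genes are shown because the assignment of a read to a gene rests on how far these segments differ. The lines give the last 90 bases of each transcript in GENCODE M21 (GRCm38, the same build as the mm10 of the deposited files), with capitals from the TGT codon of the conserved cysteine, where the third complementarity-determining region starts, to the end of the germline segment.
Ighv3-6: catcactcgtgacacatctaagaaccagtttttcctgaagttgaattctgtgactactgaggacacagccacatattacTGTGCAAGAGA
Ighv1-26: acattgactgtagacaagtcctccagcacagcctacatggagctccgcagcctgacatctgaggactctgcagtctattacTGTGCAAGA
Ighv1-18: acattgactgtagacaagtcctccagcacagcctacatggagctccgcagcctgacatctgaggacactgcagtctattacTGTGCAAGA
Ighv1-9: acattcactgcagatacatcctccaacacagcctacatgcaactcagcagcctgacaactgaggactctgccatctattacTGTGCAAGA
Ighv1-82: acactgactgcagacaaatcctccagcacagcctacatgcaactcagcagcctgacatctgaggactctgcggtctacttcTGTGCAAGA
All 5 genes lie on the minus strand of chromosome 12. Ighv3-6 (ENSMUSG00000076672) spans chr12:114288152-114288582, Ighv1-26 (ENSMUSG00000094546) spans chr12:114788372-114788805 and Ighv1-18 (ENSMUSG00000076695) spans chr12:114682632-114683065. Ighv1-9 (ENSMUSG00000094694) spans chr12:114583569-114584002 and Ighv1-82 (ENSMUSG00000095127) spans chr12:115952538-115953005. The annotation lists all 5 as functional V genes.

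Some members are near copies of each other. Over the whole transcript, Ighv1-26 was 96.9% identical to Ighv1-18, and Ighv1-22 was 96.6% identical to Ighv1-26. The stretches below hold the 100 bases, from transcript position 24 to 123, in which these 3 genes differ most, with capitals at the 8 positions where they are not all the same.
Ighv1-26: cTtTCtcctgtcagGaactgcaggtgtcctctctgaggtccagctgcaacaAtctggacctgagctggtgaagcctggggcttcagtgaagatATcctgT
Ighv1-18: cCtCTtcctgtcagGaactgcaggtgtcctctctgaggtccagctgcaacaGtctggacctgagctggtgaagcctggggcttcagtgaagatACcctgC
Ighv1-22: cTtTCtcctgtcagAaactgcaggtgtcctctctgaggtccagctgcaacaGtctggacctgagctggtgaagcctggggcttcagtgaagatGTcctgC
Every 100-base window of the Ighv1-18 and Ighv1-22 transcripts was unique among Ighv transcripts, as were 92.1% of those of Ighv1-26. For Ighv3-6, whose nearest relative Ighv3-1 was 91.7% identical, every such window was unique. Ighv2-2 shared 24.1% of its windows with Ighv2-4. Few cells held UMIs of both members of a pair: no pair of Ighv genes was found together in more than 4 gated cells. With 69.3% of assigned cells at exactly 2 UMIs of their gene, such pairs could seldom be seen. The count therefore does not measure how often reads go to the wrong copy.

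Detection of Ighv UMIs was limited, and rare in T and myeloid cells without transcripts of the B gate genes. T cells here had at least 3 UMIs over Cd3d, Cd3e and Cd3g, and no UMI of Cd79a, Cd79b or Ms4a1. Myeloid cells had at least 3 UMIs over Lyz2, Csf1r, S100a8 and Csf3r. They also fell below the T cell gate and had no UMI of the B gate genes. In T cells, which do not rearrange this locus productively, 0 cells of 1039 to 2212 per library had 2 or more Ighv UMIs, which allows a share of up to 0.136% to 0.289%, and 0.467% to 1.25% had at least 1. In myeloid cells, 0% to 0.292% per library had 2 or more. Median depth in these T cells was 3705 to 4160 UMIs, above the 2659 to 2953 of the gated B cells, and 30.2% to 34.9% of the gated B cells had at least 1 Ighv UMI. The libraries read the 3′ end of transcripts while the V segment lies at the 5′ end, and 69.3% of assigned cells had exactly 2 UMIs of their gene. A second Ighv gene was seen in 7.28% of assigned cells, and in 93.9% the top gene held at least 80% of the cell's Ighv UMIs. Because a single UMI was also rare in these T cells, usage was read a second time from the 7454 cells with at least 1 UMI of a single top gene. T and myeloid cells that carried stray RNA of the B gate genes were left out by the selection. The Ighv background in such cells was not measured, so the full background may be higher.

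**Figure D1:**
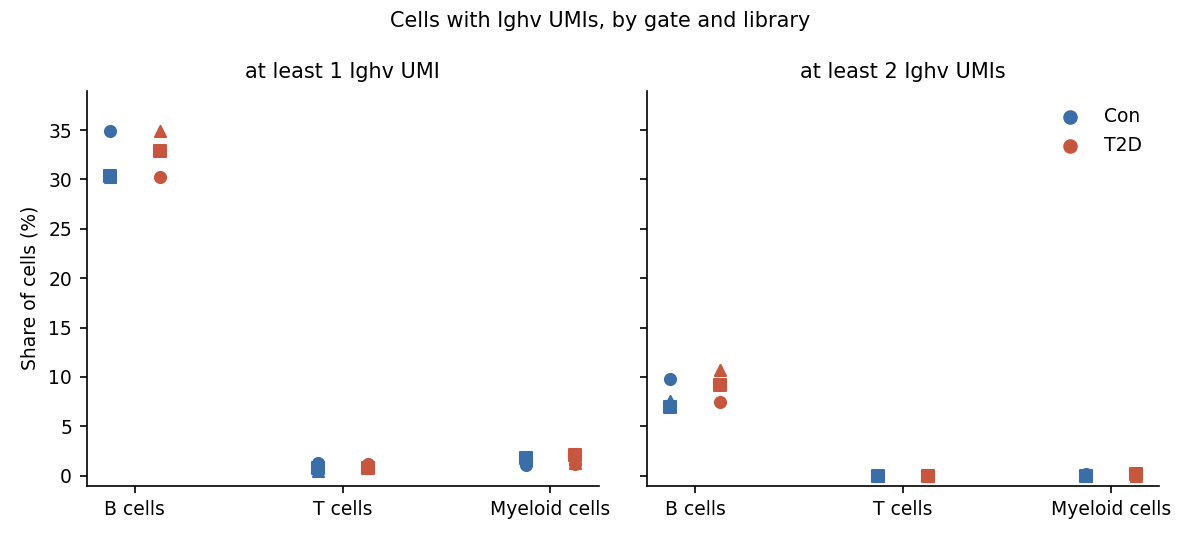
Share of cells (y axis, percent) with at least 1 (left) or at least 2 (right) Ighv UMIs in the gated B cells, T cells and myeloid cells of each library; each point is 1 library, blue Con and red T2D. B cells lie between 30.2% and 34.9% on the left, and no T cell of any library had 2 UMIs. The T and myeloid cells shown were selected to have no UMI of Cd79a, Cd79b or Ms4a1.

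The share of gated B cells assigned an Ighv gene was similar in range in both groups. It was 9.75% in Con 1 (95% exact binomial interval 8.85% to 10.7%), 6.99% in Con 2 (6.21% to 7.83%) and 7.61% in Con 3 (6.85% to 8.43%). In the diabetic libraries it was 7.42% in T2D 1 (6.65% to 8.26%), 9.15% in T2D 2 (8.26% to 10.1%) and 10.6% in T2D 3 (9.61% to 11.8%). These intervals cover counting error only. The group means were 8.12% ± 1.45 (SD, n = 3) and 9.07% ± 1.61 (SD, n = 3), a difference within the spread (two-sided exact permutation test, p = 0.6). With 3 libraries against 3, this test cannot go below 0.1. Assigned cells were deeper than the rest, with median totals of 3038.5 to 3510 UMIs against 2628 to 2893.5 in unassigned cells. Thinned to 1500 UMIs per cell, which left out 145 to 224 shallower cells per library, 2.17% to 2.86% of control and 2.67% to 3.24% of diabetic cells were assigned.

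Usage was spread widely over the locus but led by a few genes. An assigned cell was found for 101 of the 185 features, 37 were used in every library, and 23 had at least 30 cells. The 5 leading genes took 29.5% and the 15 leading genes 53.9% of a library on average. Of the cells, 97.8% used one of 95 features annotated as functional V genes, and 44 cells used one of 6 features annotated as pseudogenes.

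Ighv3-6 was the most used gene. It was assigned to 8.77% of the cells in Con 1, 9.78% in Con 2 and 10.6% in Con 3, and to 16.6% in T2D 1, 8.96% in T2D 2 and 7.78% in T2D 3. T2D 1 stood highest and the other diabetic libraries lay within or below the control range, so the groups overlapped (log2 fold change of T2D over Con 0.18, SE 0.22, edgeR quasi-likelihood adjusted p = 0.733). The 52 Ighv3-6 cells of T2D 1 did not share 1 light chain: 9 had a light chain assigned, and these used 7 different V genes, with at most 3 cells on any of them. At 1 UMI its share in T2D 1 was 9.43%, against 5.75% to 7.37% in the other libraries.

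Ighv1-26, the second in order, took 7.52%, 9.42% and 5.60% of the cells in Con 1 to 3 and 5.73%, 5.88% and 4.90% in T2D 1 to 3. The 2 groups overlapped only through Con 3 (log2 fold change -0.43, SE 0.29, edgeR adjusted p = 0.671). Ighv1-18 followed with 5.51%, 2.17% and 5.01% in the controls and 2.87%, 6.16% and 4.32% in the diabetic libraries. Ighv1-9 had 3.51%, 3.26% and 5.01% against 5.41%, 4.76% and 3.17%, and Ighv1-82 had 2.51%, 6.52% and 4.72% against 3.18%, 2.52% and 4.90%. The ranges of these 3 genes crossed in both directions, and each gene's mean level lay within 1 SD of the next in order from Ighv1-18 to Ighv1-22. Ighv1-22 (mean 3.40% of cells), Ighv1-39 (3.16%), Ighv8-8 (3.12%), Ighv8-12 (2.38%), Ighv10-3 (2.14%), Ighv1-80 (2.13%), Ighv6-6 (2.10%), Ighv1-7 (2.06%), Ighv2-2 (2.01%) and Ighv9-3 (1.95%) complete the 15 most used genes. Of the 15 leading genes of each group, 11 were the same, and 12 when cells with 1 UMI were counted.

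**Figure D2:**
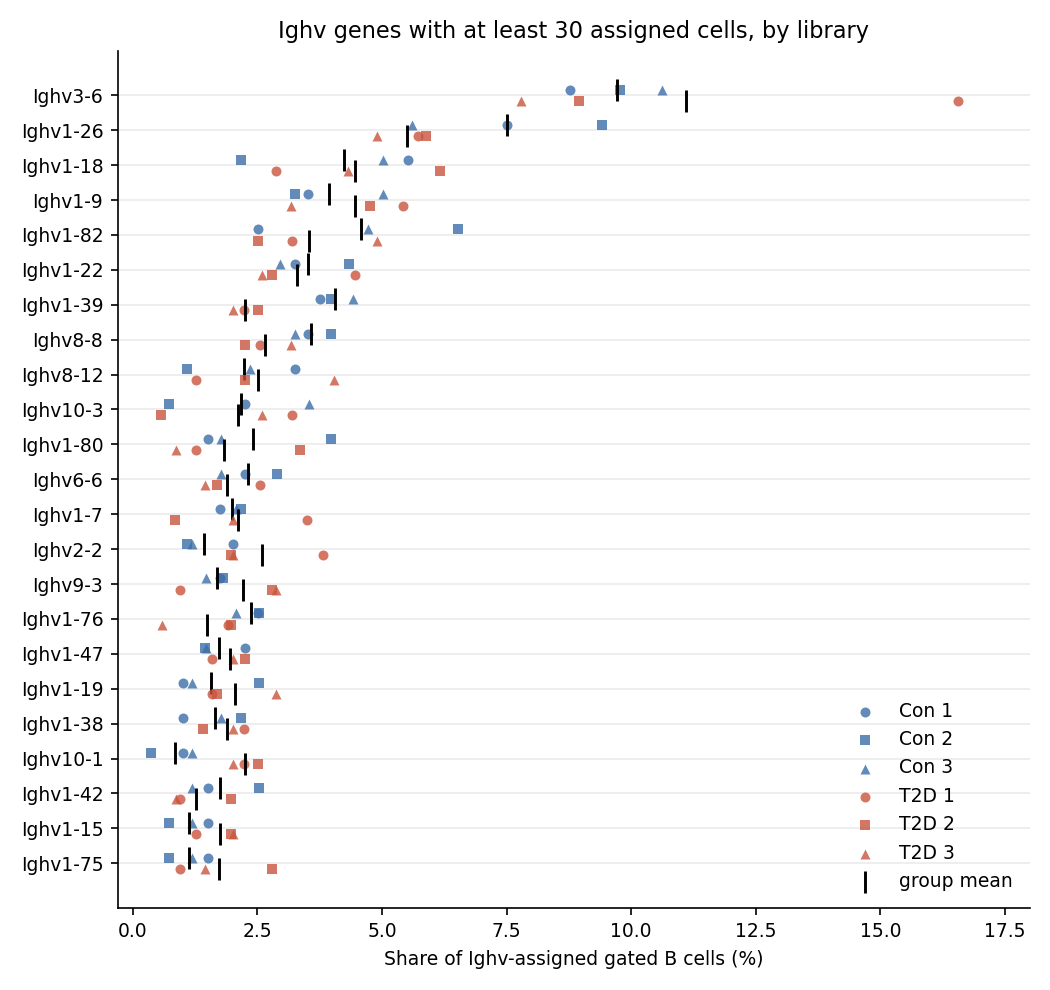
Share of Ighv-assigned gated B cells (x axis, percent) for each of the 23 Ighv genes with at least 30 assigned cells, in order of mean share; points are libraries (blue Con, red T2D) and black ticks group means. Ighv3-6 leads with 16.6% in T2D 1, while Ighv10-1 lies at 0.36% to 1.18% in Con and 2.02% to 2.52% in T2D.

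No Ighv gene passed the test for changed usage. The fit covered the V genes of the heavy, kappa and lambda loci with at least 30 cells, and called 0 of 59 genes (0% of those tested, adjusted p under 0.05), 23 of them Ighv. At an unadjusted p under 0.05, edgeR's quasi-likelihood test had 2 Ighv genes, of 3 among all 59 genes, and DESeq2 had 0 of 59. With 1 UMI, 60 Ighv genes could be tested among 132 V genes and again 0 were called (0% of those tested). There, 5 Ighv genes had an unadjusted p under 0.05, of 12 among all 132 V genes. The depth of the data sets what could have been seen: at 2 UMIs the 95% interval of the log2 fold change lay between -1 and 1 for 5 of the 23 genes, and at 1 UMI for 36 of the 60. For the remaining genes the interval did not exclude a 2-fold change.

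The gene with the lowest p was Ighv10-1 (chr12:114479005-114479451, 32 cells), a functional V gene of a 4-feature family. It took 1.00%, 0.36% and 1.18% of the cells in Con 1 to 3 and 2.23%, 2.52% and 2.02% in T2D 1 to 3. All 3 diabetic libraries lay above all 3 controls, yet the gene did not pass the test (log2 fold change 1.32, 95% interval 0.23 to 2.40, edgeR unadjusted p = 0.018, adjusted p = 0.644). At 1 UMI, with 118 cells, it took 0.94%, 1.29% and 1.29% in the controls and 2.42%, 2.26% and 1.35% in the diabetic libraries, still without overlap and with a smaller fold (log2 0.79, edgeR adjusted p = 0.512).

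Ighv1-39 (chr12:114914599-114915032, 64 cells), of the Ighv1 family, went the other way at 2 UMIs. It took 3.76%, 3.99% and 4.42% in Con 1 to 3 and 2.23%, 2.52% and 2.02% in T2D 1 to 3, with no overlap (log2 fold change -0.83, 95% interval -1.56 to -0.10, edgeR unadjusted p = 0.026, adjusted p = 0.644). At 1 UMI, with 190 cells, the same gene had 2.61% to 2.74% against 1.98% to 2.74%, and the groups overlapped. The next genes by p were Ighv2-2 (log2 fold change 0.78), Ighv1-26, Ighv1-76 (-0.67) and Ighv8-8 (-0.42), all with an edgeR adjusted p of 0.671 or 0.711.

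Among the 23 tested Ighv genes, groups did not overlap for 1 gene that was higher in T2D (Ighv10-1) and 3 that were lower (Ighv1-39, Ighv8-8 and Ighv1-76). Over all 59 V genes tested, 3.39% were higher and 8.47% lower without overlap, 11.9% in all, beside 17.4% (4 of 23) of the Ighv genes. At 1 UMI, 8 of 60 Ighv genes did not overlap, 5 higher and 3 lower, while of the 132 V genes 8.33% were higher and 5.3% lower, 13.6% in all. Ighv1-19, at 1.30% to 1.54% in Con and 2.10% to 2.34% in T2D, was among the higher ones (log2 0.65, edgeR adjusted p = 0.512), as was Ighv2-2.

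Ighv10-1 has a near relative in Ighv10-3, and how reads were divided between the 2 genes was not tested. Ighv10-1 and Ighv10-3 were 92.3% identical by edit distance over the longer transcript. Their annotated transcripts are 359 and 377 bases long, and this difference in length counts against identity, so the shared sequence is closer than 92.3%. The 100 bases in which they differ most hold 6 differences, in capitals.
Ighv10-1: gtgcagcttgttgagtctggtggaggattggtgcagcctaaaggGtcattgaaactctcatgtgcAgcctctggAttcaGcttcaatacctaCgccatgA
Ighv10-3: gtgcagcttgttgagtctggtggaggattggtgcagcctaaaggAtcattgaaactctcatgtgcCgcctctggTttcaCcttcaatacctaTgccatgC
Ighv10-3, unlike its neighbour, took 2.26%, 0.72% and 3.54% in the controls and 3.18%, 0.56% and 2.59% in the diabetic libraries, with group means of 2.17% ± 1.41 (SD, n = 3) and 2.11% ± 1.38 (SD, n = 3). All 100-base windows of both transcripts were unique among the Ighv transcripts.

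By family, Ighv1 held the largest share of the cells in every library. Its share was 53.9%, 61.2% and 54.0% in Con 1 to 3 and 53.5%, 56.0% and 53.3% in T2D 1 to 3 (two-sided exact permutation test, p = 0.5). Ighv3, with Ighv3-6 in 209 of its 239 cells, held 11.8% on average, Ighv2 6.41%, Ighv8 6.06%, Ighv14 3.78%, Ighv10 3.70% and Ighv5 3.63%. Ighv14 was lowest in T2D 1, at 0.318% against 2.80% to 5.76% in the other libraries, but at 1 UMI it held 3.79% there, within the range of the rest. Ighv7, with 28 cells, was lower in every diabetic library at 2 UMIs, at 1.75% to 2.17% in Con against 0% to 1.68% in T2D (two-sided exact permutation test, p = 0.1). At 1 UMI it overlapped. Among families with at least 30 cells, Ighv10 was higher and Ighv6 lower in T2D without overlap at 1 UMI, at 2.89% to 2.97% against 3.48% to 4.19% for Ighv10 and 3.43% to 4.20% against 2.98% to 3.31% for Ighv6. The other families of that size (Ighv1, Ighv2, Ighv3, Ighv5, Ighv8, Ighv9 and Ighv14) overlapped at 1 UMI. At 2 UMIs Ighv10 and Ighv6 overlapped too (two-sided exact permutation test, p = 0.5 and 0.9).

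Along the locus, used genes reached from one end to the other. Ighv2-2 (chr12:113588267-113588702) was the gene nearest to the D segments with an assigned cell, and Ighv1-85 (chr12:116000028-116000461) the farthest. When the 2437 kb from Ighv5-1 to Ighv1-86, the ends of the annotated cluster, were divided into 4 equal parts of 609 kb, counted from the D-proximal end, the second held the most cells in every library, with 45.3% ± 1.798 (SD, n = 3) in Con and 47.4% ± 6.67 (SD, n = 3) in T2D. It contains Ighv3-6, Ighv1-9, Ighv1-18, Ighv1-22 and Ighv1-26. The first part held 18.9% in Con and 18.8% in T2D, the third 18.4% and 16.5%, and the fourth 17.4% and 17.3%. At 1 UMI the third part was lower in each T2D library than in each Con library, at 15.8%, 17.0% and 17.2% against 14.7%, 14.1% and 15.6% (two-sided exact permutation test, p = 0.1, the smallest possible). At 2 UMIs this part overlapped between groups (p = 0.3, same exact test).

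**Figure D3:**
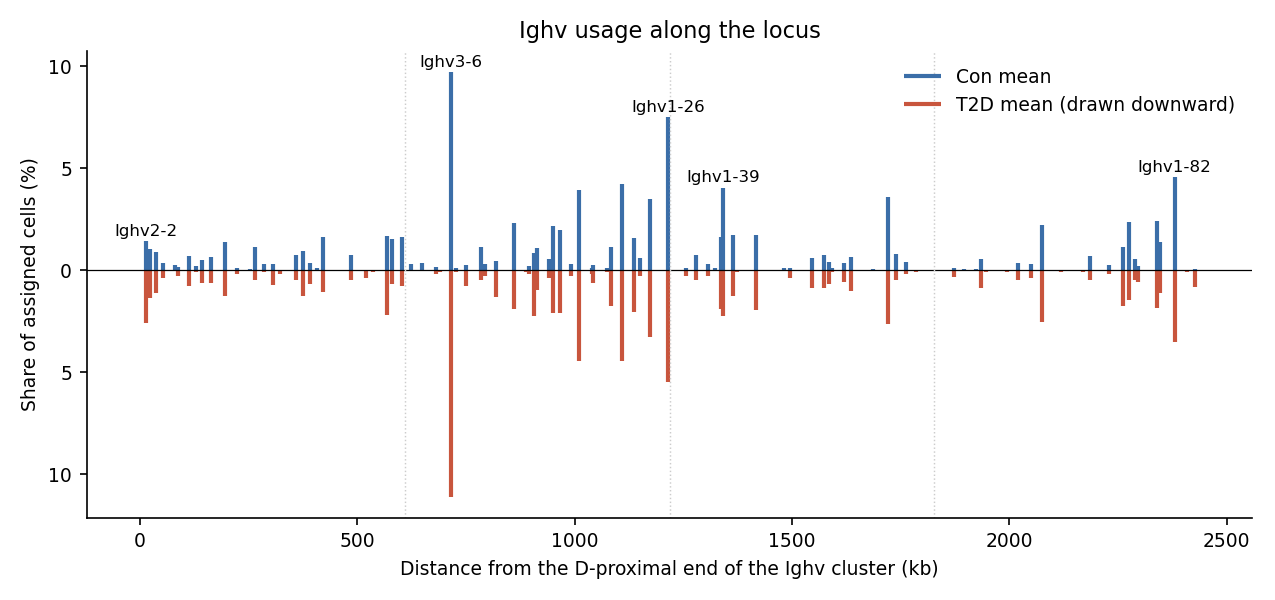
Mean share of assigned cells (y axis, percent) of each Ighv gene against its distance from the D-proximal end of the Ighv cluster (x axis, kb), Con upward in blue and T2D downward in red; dotted lines divide the span into 4 equal parts. Ighv3-6 and Ighv1-26 are the tallest in both groups, and both lie in the second part.

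Diversity did not differ beyond the spread between libraries. The effective number of Ighv genes, the inverse of the chance that 2 random cells of a library share a gene, was 34.2, 28.7 and 32.3 in Con 1 to 3 and 22.2, 36.3 and 41.5 in T2D 1 to 3 (two-sided exact permutation test, p = 0.8). T2D 1 was the lowest and T2D 3 the highest of the 6 libraries, so the diabetic group had the wider spread. Shannon diversity was 3.81, 3.68 and 3.79 against 3.61, 3.87 and 3.93 nats (p = 0.7, same exact test). Drawn down to 276 cells, a library held 64.2, 64.0 and 65.5 genes in Con and 62.5, 69.3 and 71.0 in T2D (p = 0.4, same exact test). The low value of T2D 1 goes with its high Ighv3-6 share. At 1 UMI the 6 libraries lay closer together, at 41.1, 40.2 and 42.0 effective genes in Con and 39.8, 39.99 and 45.6 in T2D. Without T2D 1, the effective number at 2 UMIs was 7.16 higher in T2D, with no overlap (exact permutation test, p = 0.1, the smallest it allows with 2 libraries against 3), and without T2D 3 it was 2.50 lower.

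**Figure D4:**
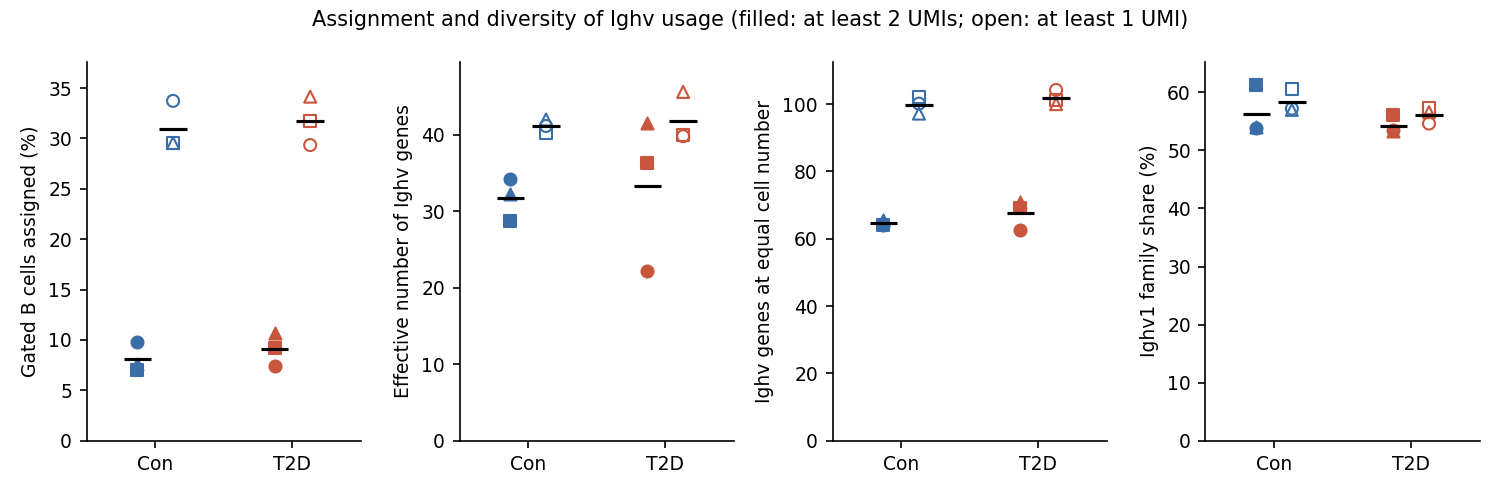
Per-library values of the assigned share of gated B cells (percent), effective number of Ighv genes, number of Ighv genes at equal cell number and Ighv1 family share (percent); points are libraries, bars group means, filled at 2 UMIs and open at 1 UMI. The effective number runs from 22.2 to 41.5 in T2D and from 28.7 to 34.2 in Con at 2 UMIs.

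Ighv genes of B-1 cells were rare. Ighv11-2 and Ighv12-3 are known from B-1 cells that bind phosphatidylcholine. No cell was assigned Ighv11-2 at 2 UMIs. At 1 UMI it was the assigned gene of 6 cells in the Con libraries (0.145%, 0.172% and 0.152% of cells) and of 0 of 1113 to 1241 cells per T2D library (which allows a share of up to 0.242% to 0.270%). Its summed UMIs in the gated cells were 2, 2 and 2 in Con and 0, 1 and 0 in T2D, so 1 UMI in T2D 2 lay in a cell not assigned to it. With 6 assigned cells in all, this was below the 30 cells needed for the test. Ighv12-3 had 6 assigned cells, and 27 at 1 UMI. Ighv5-2, a D-proximal gene used early in life, had 0 assigned cells and 15 at 1 UMI. In cells with at least 2 UMIs over Bhlhe41, Fcrl5 and Zbtb32, genes of B-1 and other innate-like B cells, the combined share of Ighv11-2 and Ighv12-3 was on average 2.45 percentage points above that of the other assigned cells of the same library (exact sign-flip test over 6 libraries, p = 0.5). It was higher in 2 of 6 libraries, each with 1 such cell. At 1 UMI it was 3.28 points higher, in 5 of 6 libraries (p = 0.0625, same exact test). This rests on 1, 1 and 2 such cells in Con 1 to 3 and 2, 0 and 1 in T2D 1 to 3, of 19 to 51 innate-like cells per library.

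A small set of cells carried a large part of the Ighv UMIs. Cells with at least 5 UMIs of Jchain, which encodes the chain that joins IgA and IgM polymers and is made by antibody-secreting cells, numbered 9, 12 and 10 in Con 1 to 3 and 20, 26 and 30 in T2D 1 to 3. Their mean Xbp1 count, a transcription factor of secretory cells, was 9.67 to 22.2 UMIs against 0.140 to 0.194 in other gated B cells, and 40% to 85% of them had a Mki67 UMI, a marker of cycling cells. They made up 0.220%, 0.304% and 0.225% of the gated B cells in Con and 0.473%, 0.666% and 0.921% in T2D. In these cells the top Ighv gene had a median of 26 UMIs, against 2 in the other assigned cells.

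These cells held 11.3%, 16.4% and 11.1% of all Ighv UMIs of gated B cells in Con 1 to 3, and 22.2%, 34.9% and 35.0% in T2D 1 to 3. All 3 diabetic libraries lay above all 3 controls, by 17.8 percentage points on average (two-sided exact permutation test, p = 0.1, the smallest possible). This comparison was not planned and was added after the data were seen. Over all gated B cells, Ighv genes together stood at 188, 167 and 153 CPM (UMIs per 1000000 UMIs of the gated cells) in Con and 181, 224 and 234 CPM in T2D (p = 0.2, same exact test). Without the Jchain cells these became 167, 142 and 138 against 144, 150 and 158 CPM (p = 0.9, same exact test), group means of 149 ± 16.3 and 151 ± 7.34 (SD, n = 3 each). The gate on Cd79a, Cd79b and Ms4a1 keeps only secreting cells that still carry these transcripts, and cells lacking them were not analysed here.

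**Figure D5:**
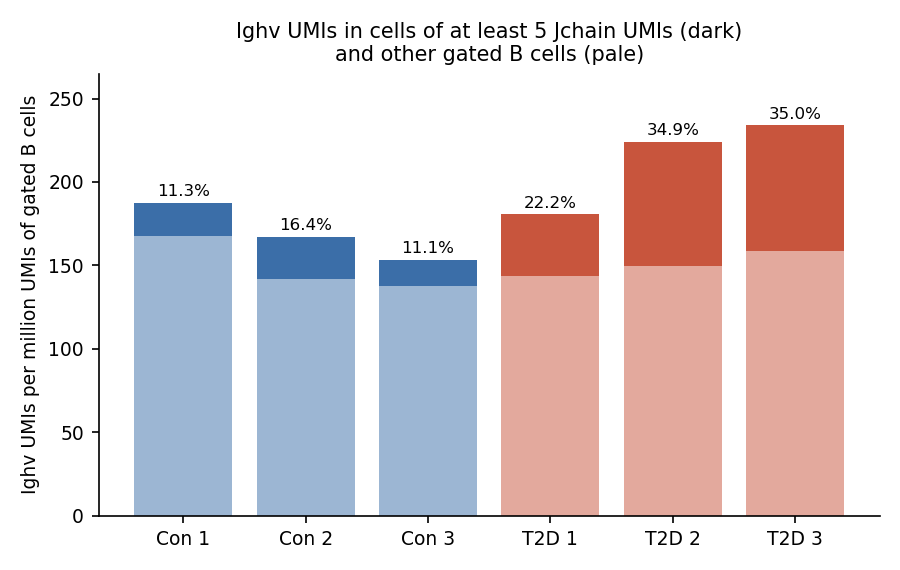
Ighv level in gated B cells (y axis, CPM) in each library, with the part in cells of at least 5 Jchain UMIs dark and the rest pale; the printed percentage is the dark part. That part is 11.1% to 16.4% in Con and 22.2% to 35.0% in T2D, while the pale parts overlap.

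The secreting cells were diverse in their heavy chains. Of the 107 such cells, 87 were assigned an Ighv gene, and they used 46 genes. In 85 a light chain V gene was also assigned, and these formed 83 distinct heavy-light pairs within libraries. A pair occurred in more than 1 cell in 2 cases, each with 2 cells: Ighv5-4 with Igkv1-110 in Con 1 and Ighv10-3 with Igkv12-44 in T2D 3. The gene with the most secreting cells was Ighv5-4 in Con 1 (2 of 7 cells), Ighv1-76 in Con 2 (3 of 9) and Ighv1-26 in Con 3 (2 of 9). No gene led alone in a T2D library, where the highest count was 2 cells: Ighv3-6, Ighv1-53, Ighv10-3 and Ighv1-15 tied in T2D 1 (of 16 cells), and Ighv9-3 and Ighv1-9 in T2D 2 (of 21). In T2D 3 the 7 genes Ighv5-4, Ighv9-3, Ighv1-9, Ighv10-3, Ighv1-81, Ighv1-50 and Ighv1-52 tied (of 25). The effective number of genes was computed for libraries with at least 10 such cells, which left T2D 1 to 3 with 30, 105 and 42.9, so the groups could not be compared. In the other assigned cells of these libraries it was 21.5, 34.9 and 38.8. Each secreting value exceeds the number of cells behind it (16, 21 and 25, on 12, 19 and 18 genes). These are rough estimates, and no conclusion is drawn from them. The Ighv1 family took 60.9% of the secreting cells and 54.9% of the others.

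Most secreting cells had switched class. By the constant region with the most UMIs, 64 of the 87 were IgA, 20 IgG and 3 IgM or IgD, while 1936 of the 1945 other assigned cells (99.6%) were IgM or IgD. IgG was seen in 2 of 25 secreting cells in Con and 18 of 62 in T2D. Of these 18, T2D 1 held 8, T2D 2 held 4 and T2D 3 held 6, and in Con both were in Con 3. These are cells of 3 libraries a group, and the shares were not tested.

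Single cells could set the summed level of a gene. Ighv3-6 had 494 UMIs in T2D 2, of which 338 came from 1 IgA cell with the light chain gene Igkv6-32. In T2D 1 it had 308, with 96 from 1 cell, and in Con 1 to 3 it had 149, 111 and 159, with at most 7 in any cell. Summed per library, 56 Ighv genes could be tested among 11832 genes, and edgeR called 0 of them, against 178 genes (1.5%) over all. At an unadjusted p under 0.05 there were 7 of the 56 Ighv genes, beside 1768 of all 11832 genes. DESeq2 called 1 Ighv gene, Ighv10-1, beside 229 genes over all. Of the 56, 32 had a log2 fold change above 0 and the median was 0.09, against 0.00 over all genes tested. Ighv10-1 had 22, 17 and 24 UMIs in the controls and 46, 40 and 103 in the diabetic libraries (log2 fold change 1.67, SE 0.42, edgeR adjusted p = 0.102), and 79 of the 103 in T2D 3 were in 1 secreting cell. Without the secreting cells, T2D 3 had 24.

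Genes that act on or with the heavy chain locus were read from the same summed counts, from 6 lists. Among the constant regions, 0 of 7 tested genes passed in either direction with edgeR. Ighm, the first class expressed, had a log2 fold change of 0.05 and Ighd, which is co-expressed with it, -0.06. The switched classes were more variable: Ighg2b had 32, 53.6 and 37.3 CPM in Con against 376, 157 and 184 in T2D (log2 2.54, SE 0.48, edgeR adjusted p = 0.132), and Igha 608, 1060 and 470 against 697, 1596 and 2743 (log2 1.21, SE 0.64, adjusted p = 0.481). The other switched classes did not rise alike. Ighg2c overlapped, at 6.42, 12.3 and 235 CPM in Con against 468, 219 and 266 in T2D (log2 1.87, edgeR adjusted p = 0.636). Ighg1 overlapped too, at 1.74, 2.21 and 10.6 against 2.49, 7.34 and 147 CPM (log2 3.31, edgeR adjusted p = 0.528). Ighg3 was lower in T2D on average, at 8.12 to 30.7 CPM in Con against 6.70 to 14.5 (log2 -0.698, edgeR adjusted p = 0.737). Of the constant regions, DESeq2 called Ighg2b alone. Without the secreting cells the log2 fold change of Ighg2b was 0.35 (edgeR adjusted p = 0.628).

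Among genes of antibody secretion, 0 of 5 tested passed with edgeR. At an unadjusted p under 0.05 there were 3, beside 1768 of 11832 genes over all. Xbp1 had 56.6, 70.6 and 58.7 CPM in Con against 75.2, 101 and 112 in T2D (log2 0.61, SE 0.16, edgeR adjusted p = 0.163). Prdm1, the repressor that drives plasma cell differentiation, had 4.44, 8.91 and 6.23 against 10.8, 12.7 and 19.5 (log2 1.11, SE 0.30, adjusted p = 0.153). Jchain had 167, 294 and 150 against 404, 483 and 848 (log2 1.48, SE 0.44, edgeR adjusted p = 0.252), and Sdc1, a surface protein of plasma cells, a log2 fold change of -0.24 (adjusted p = 0.440). These calls depended on the setting: Xbp1 and Prdm1 were called as higher in T2D by DESeq2, and by edgeR with no expression filter (adjusted p = 9.1e-07 and 3.3e-09) or with the replicate number as a block (0.0048 and 0.011), and Xbp1 also by edgeR without T2D 1 (0.00096). Without the secreting cells the log2 fold change of Xbp1 was 0.08 (edgeR adjusted p = 0.75) and that of Prdm1 0.82 (0.069). Jchain, the gene that defines those cells, then had 1.25 and was called (edgeR adjusted p = 0.033). Since cells were left out by their Jchain count, this value covers only cells with fewer than 5 Jchain UMIs, and no conclusion is drawn from it. Of genes of recombination and mutation, 0 of 6 passed. Rag1, which cuts the segments for joining, stood at 1.26 to 1.32 CPM in Con against 0.378 to 0.803 in T2D (log2 -1.20, SE 0.40, edgeR adjusted p = 0.163). Its values rest on few UMIs, 16, 15 and 17 in Con 1 to 3 and 10, 6 and 4 in T2D 1 to 3. Of the 12 transcription factors of B cells, 0 passed with edgeR. An unadjusted p under 0.05 was seen for 5, beside the 1768 of 11832 genes over all. Ebf1, needed for B cell identity, had a log2 fold change of -0.18 (edgeR adjusted p = 0.111), and was called by DESeq2 (0.042) and by edgeR with doublets kept (0.048). Irf8 had 0.19 (edgeR adjusted p = 0.116), and was called by edgeR with no expression filter (0.049). Of the receptor partners, 0 of 3 passed. With no expression filter, where 613 of 19758 genes were called, edgeR called Vpreb1 (adjusted p = 0.00086) and Igll1 (0.016) as higher in T2D. Both rest on few UMIs: Vpreb1 had 1, 1 and 3 in Con against 8, 2 and 28 in T2D, and Igll1 0, 0 and 0 against 3, 0 and 11. Of the J segments only Ighj4 could be tested, with a log2 fold change of 0.00. Summed markers of T cells in the gated B cells were 180 to 262 CPM in Con and 334 to 343 in T2D, with 8 of 8 markers detected. In the cells assigned an Ighv gene they overlapped, at 167 to 240 and 209 to 346 CPM. Summed NK cell markers (3 of 3 detected) were 16.9 to 24.9 against 28.2 to 33.9 CPM in the gated cells and 9.79 to 13.9 against 20.9 to 36.5 in the assigned cells. The part of these markers in the values above was not tested.

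Heavy chains paired with many light chains. Of the assigned cells, 520 also had a kappa or lambda V gene with at least 2 UMIs. Ighv3-6 cells with a light chain, 39 in all, used 20 light chain genes, led by Igkv12-44 in 7 cells (17.9%), against 4.23% of all 520. Ighv1-26 cells used 18 genes in 26 cells, Ighv1-18 cells 17 in 21, Ighv1-9 cells 16 in 20 and Ighv1-82 cells 15 in 20. At 1 UMI the leading partner of Ighv3-6 was Iglv1, with 9 of 92 cells, so its leading partner differed between the thresholds.

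Each pair of libraries shared 63 to 86 cell barcodes. Among cells with an Ighv gene, 34 such pairs were found, and 0 of them had the same Ighv gene. Libraries held 23574052 to 32321855 UMIs and 7104 to 8721 cells after filtering, and B cells by the gate made up 55.6% to 56.5% of cells in Con and 41.2% to 48.5% in T2D. Markers of the B lineage outside the gate genes (9 of 9 detected) summed to 29551 to 31768 CPM in Con and 29689 to 30888 in T2D in the gated cells. In the cells assigned an Ighv gene they summed to 28164 to 28802 CPM in Con and 24052 to 26045 in T2D, so every diabetic library lay below every control there, and the part of this in the usage values was not tested.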

How the data were processed

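Blood mononuclear cells of 3 Con and 3 T2D libraries were analysed, grouped by the sample titles. Per the labels' protocols, cells were isolated on Ficoll and red cells lysed, and 3′ whole-transcriptome libraries with UMIs were made on the BD Rhapsody system. The deposited matrices hold the authors' unnormalised UMI counts. Per the submitters' processing notes, CASAVA 1.8, UMI-tools, Seurat and mm10 were used, without stated roles. For the aligner, the annotation and the counting of reads that fit several V genes, no detail is given in sources used here.

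A floor of 200 genes and a ceiling of 20% mitochondrial UMIs left 49025 of 49407 barcodes. Doublets were scored with an own version of the scrublet scheme at 1 threshold for all libraries, and 2.77% to 3.42% of cells were removed. Libraries differed by more than sampling noise (lowest chi-square over degrees of freedom 10.2). A cell with a tie for the top Ighv gene was left unassigned (6 cells), and light chain V genes were assigned by the same rule. All 185 Ighv identifiers matched GENCODE M21, the source of gene types, positions and sequences.

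Usage was tested on cells per V gene with at least 30 cells, offset by the assigned cells of the locus, and summed UMIs per gene after edgeR's default expression filter and TMM scaling. Both used edgeR 4.0.16 quasi-likelihood tests (R 4.3.3) over all 6 libraries, with Benjamini-Hochberg adjustment over the whole table. Alternatives used limma 3.58.1, DESeq2 1.42.0, other thresholds, gates and scalings, each library left out, and a block on the library number. Single values per library were compared by two-sided exact permutation tests, and python 3.11.15 with numpy 2.4.6 and scipy 1.17.1 was used. The fits were also run on counts simulated with the same scatter for every gene. Those counts hold no single cells with many UMIs of a gene, so they do not show how the fits perform on these data.

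Genes were named by rule: the 15 most used, the 6 with the lowest p in the usage fit, Ighv11-2, Ighv12-3 and Ighv5-2, the leading gene of secreting cells in each library, and the genes at each end of the used locus. Ighv1-19, Ighv1-38, Ighv1-47, Ighv1-53, Ighv5-17 and Ighv6-3 were chosen after their values were seen. The members, gates and gene lists were chosen with earlier results of these data known.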

Additional observations from a re-analysis of the deposited data

How the results depend on the processing

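The count of Ighv genes with changed usage was 0 under all alternatives run. At an unadjusted p under 0.05 there were 0 to 6 Ighv genes and 0 to 12 of all V genes tested. For summed UMIs the count was 0 in the main edgeR fit over all 6 libraries. It was 1 with DESeq2 (Ighv10-1, adjusted p = 0.0038), beside 229 of all 11832 genes. With no expression filter it was 3 (Ighv10-1, Ighv1-9 and Ighv1-53), beside 613 of all 19758 genes. It was 0 with doublets kept or without Jchain cells, and 0 to 3 with each library left out. The libraries whose absence gave calls were T2D 1 (2 genes: Ighv6-3 and Ighv1-9), T2D 2 (3 genes: Ighv10-1, Ighv10-3 and Ighv1-53) and T2D 3 (1 gene: Ighv3-6). Over all genes, edgeR called 274 of 12044 without T2D 1, 117 of 11997 without T2D 2 and 89 of 12045 without T2D 3. The cause was not tested. Without Jchain cells the log2 fold change of Ighv10-1 was 0.88 (edgeR adjusted p = 0.158).

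With each library left out, the difference in the effective number of genes, T2D minus Con, ran from -2.50 (without T2D 3) to 7.16 (without T2D 1), that in Shannon diversity from -0.017 to 0.140 nats (the same libraries), and that in the Ighv1 family share from -3.33 (without Con 1) to 0.35 percentage points (without Con 2). The differences in assigned share (0.17 to 1.78 points) and in rarefied gene number (1.32 to 5.57) kept their sign. The difference in the share of Ighv UMIs in secreting cells did too (15.6 to 22.01 points). That last comparison and its alternatives were chosen after seeing the data. The alternatives at 1 UMI with libraries or Jchain cells left out were also chosen then. Thinned to 1500 UMIs, the Ighv1 family share was 5.73 points lower in T2D, with no overlap (exact permutation test, p = 0.1).

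Whether library numbers pair the samples could not be settled with 3 libraries a group. The correlations of the deviations of same-numbered libraries were -0.12, -0.03 and 0.14. For Con 1 to 3, the highest correlation with a T2D library of another number was 0.21, 0.06 and 0.07. The same number thus matched best only for Con 3. With the replicate block, 0 Ighv genes changed in usage and 1 in summed UMIs (Ighv10-1, edgeR adjusted p = 0.0085), and the count of all genes called rose from 178 to 393. Leaving out a Con library gave no value for the effective number in secreting cells, since no Con library had 10 such cells.

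At 2 UMIs most assigned cells rest on exactly 2 molecules. Of 286 values of the 22 named genes under the alternatives, 14 moved by more than 1 SD between libraries, all at another UMI threshold.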

Other observations

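The share of cells with at least 1 UMI of a gene that reached 2 UMIs differed between Ighv genes, so usage at 2 UMIs weights genes unequally. Outside the secreting cells the median over 60 genes with at least 30 cells was 25.4%. Ighv1-38, which the annotation lists as a pseudogene, stood highest at 63.6% (35 of 55 cells), followed by Ighv1-47 at 50.7% and Ighv3-6 at 39.8%. Ighv9-3 reached 17.8%, Ighv1-53 7.22% and Ighv5-17 5.45%. Ighv3-6 accordingly led Ighv1-26 by 209 to 131 cells at 2 UMIs and by 521 to 518 at 1 UMI.

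Cells with at least 2 UMIs over Bhlhe41, Fcrl5 and Zbtb32 and at least 1 Ighv UMI numbered 216. Their leading gene was Ighv9-3, in 11 cells (5.09%, against 2.65% of other B cells), and Ighv1-26, among the leading genes elsewhere, had 7 (3.24% against 7.06%). These shares pool cells of 6 libraries and were not tested.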
